A study of Mus musculus with 18 samples.

Results

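The miRNAs described here are the 4 mature strands of the smooth muscle pair miR-143 and miR-145a of the mouse, mmu-miR-143-3p, mmu-miR-143-5p, mmu-miR-145a-5p and mmu-miR-145a-3p, written here without the mouse prefix. They were taken by name as 4 of the 1367 mature miRNAs listed in 18 small RNA libraries. This choice was made with earlier results of these data known. All 4 were listed in every set of libraries, and all 4 passed the minimum mean of 10 normalized counts in both sets from fibroblasts, while miR-143-5p, with a mean of 3.59 normalized counts, did not pass it in B cells.

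Both hairpins are cut from a long non-coding transcript, and the RefSeq lncRNA gene Carmn holds the genes of both. In vascular smooth muscle the pair is switched on by serum response factor and its partner myocardin, and it favours the contractile state by repressing transcription factors such as KLF4 and ELK1. The pair is known as a marker of smooth muscle, fibroblasts and other mesenchymal cells and as scarce in blood cells. MiR-143-3p and miR-145a-5p are the strands usually loaded as guides, and miR-143-5p and miR-145a-3p are their partners from the other arm of each hairpin.

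The study is about how the miR-17~92 cluster, which MYC switches on and which can drive lymphoma, is made, and every sample carries the strain label Eu-myc mice. In mouse embryonic fibroblasts (MEF) the cluster was overexpressed (OV), deleted (d/d) or floxed and intact (fl/fl), with 3 libraries each. A separate MEF set was made only of d/d cells and compared overexpressed miR-290~295, a cluster typical of embryonic stem cells, with an empty plasmid (Empty), again with 3 libraries each, so that both of its groups carry the miR-17~92 deletion. Splenic B cells gave 1 library each of OV, d/d and fl/fl. The series text calls the B cells isogenic, and the labels give neither the promoter or vector of the overexpression nor the number of clones or animals behind a group. They do not say either whether replicates were separate cultures, so p-values measure the spread between these libraries, which may be technical. MEF libraries of the first set are called by the names their columns carry, OV1, OV2 and OV4, DEL1 to DEL3 and FL3 to FL5, and those of the other set by their replicate number.

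The strands of the manipulated clusters are shown because the comparisons are defined by them and because the leading strands of the 2 clusters carry overlapping seeds. The sequences are RefSeq's (GRCm38.p6), with bases 2 to 8, the seed, in capitals. Those of the miR-17~92 cluster lie on chromosome 14, with a further copy of miR-92a-3p on chromosome X, and those of the miR-290~295 cluster on chromosome 7.
miR-17-5p: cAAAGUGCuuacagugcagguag
miR-20a-5p: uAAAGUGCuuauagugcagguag
miR-92a-3p: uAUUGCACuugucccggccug
miR-291a-3p: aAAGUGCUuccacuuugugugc
miR-294-3p: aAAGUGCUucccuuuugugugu
miR-295-3p: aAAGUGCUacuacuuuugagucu
MiR-17-5p and miR-20a-5p share 1 seed, and miR-291a-3p, miR-294-3p and miR-295-3p share another that is shifted by 1 base against it, while the seed of miR-92a-3p differs from both. MiR-145b, a near namesake listed in the miR-290~295 set alone, had 0, 0 and 1 read in miR-290~295 libraries and 1, 0 and 4 reads in Empty libraries.

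The libraries held 17191892 to 24920911 reads on listed miRNAs in the first MEF set, 43164128 to 58911475 in the miR-290~295 set and 10203586 to 10612256 in B cells. The clusters moved as labelled: the summed normalized count of miR-17~92 was 384076 to 460467 in OV MEF, 1419 to 1709 in d/d MEF and 67778 to 97384 in fl/fl MEF. The summed normalized count of miR-290~295 was 769474 to 902627 in miR-290~295 libraries, against 1580.0 to 2065 in Empty libraries. Reads of miR-17~92 were left in these d/d cells and differed between the groups, with a summed normalized count of 129 to 166 in miR-290~295 and 648 to 972 in Empty libraries. All 3 tested miRNAs of the cluster fell in miR-290~295 MEF (limma, median log2 change −2.69), and their part in the results below was not tested. Fibroblast marker miRNAs took 1.26% to 2.80% of reads in MEF libraries, and blood cell markers 0.0140% to 0.0548%. Nearly all reads of that blood cell list were miR-486a-5p, at 2421 to 11076 per MEF library, while miR-142a-3p had 0 to 13. In B cells miR-142a-3p had 51072 to 76331 reads, and the fibroblast markers took 0.0145% (OV), 0.0703% (d/d) and 0.0177% (fl/fl) of reads.

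MiR-143-3p was among the most abundant miRNAs of every MEF library. It ranked between place 3 and place 7 and took 3.01% to 7.17% of reads on listed miRNAs. Its mean share of reads was 5.48% ± 0.522 in OV, 6.65% ± 0.532 in d/d, 5.30% ± 1.09 in fl/fl, 3.32% ± 0.267 in miR-290~295 and 5.93% ± 0.863 in Empty MEF (SD, n = 3 each). From high to low the order was d/d, Empty, OV, fl/fl and miR-290~295. Neighbours among the first 4 overlapped in their libraries, whereas the highest miR-290~295 library, at 3.48%, lay below the lowest fl/fl library, at 4.46%. Shares set across the 2 MEF sets and the B cells come from tables normalized separately and are descriptions.

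The other strands were much scarcer. MiR-145a-3p took 0.0285% to 0.0807% of reads in MEF, with mean shares of 0.0695% ± 0.00553 in OV, 0.0676% ± 0.00732 in d/d, 0.0782% ± 0.00307 in fl/fl, 0.0297% ± 0.00105 in miR-290~295 and 0.0474% ± 0.00214 in Empty MEF (SD, n = 3 each). From high to low the order was fl/fl, OV, d/d, Empty and miR-290~295, and by share d/d MEF overlapped with both fl/fl and OV MEF, while Empty and miR-290~295 MEF each lay apart. MiR-145a-5p took 0.00760% to 0.0299% of reads, with its highest share in an Empty library and its lowest in an fl/fl library. MiR-143-5p took 0.00483% to 0.0146%, with its highest share in an Empty library and its lowest in a miR-290~295 library. The miR-143 guide alone made up 97.9% to 98.9% of the reads of the 4 strands in each MEF library.

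**Figure D1:**
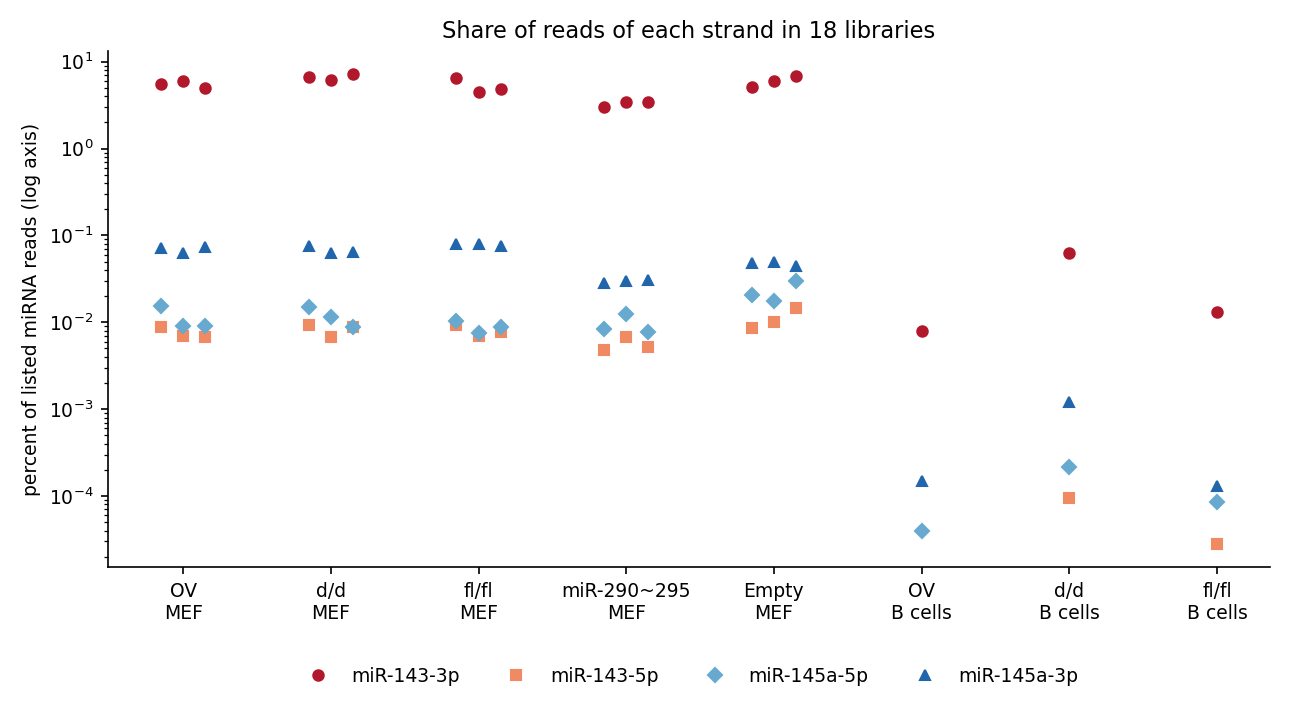
Percent of reads on listed miRNAs, on a log axis, for the 4 strands in each of the 18 libraries by group. MiR-143-3p lies between 3.01% and 7.17% in all MEF libraries and at 0.00796% to 0.0627% in B cells, above the other 3 strands in every library; miR-143-5p has no point in OV B cells, where it had 0 reads.

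Both hairpins were sequenced mostly as the 3p arm. MiR-143-3p exceeded miR-143-5p 628-fold to 866-fold in OV, 709-fold to 911-fold in d/d and 641-fold to 710-fold in fl/fl MEF, and 512-fold to 668-fold in miR-290~295 and 464-fold to 588-fold in Empty MEF. For miR-145a the partner strand, not the usual guide, was the more abundant one in all 18 libraries. In reads, miR-145a-3p was 4.65, 7.01 and 8.01 times miR-145a-5p in OV MEF, 5.05, 5.34 and 7.37 times in d/d MEF, and 7.78, 10.4 and 8.41 times in fl/fl MEF. It was 3.44, 2.38 and 3.94 times miR-145a-5p in miR-290~295 MEF, and 2.31, 2.77 and 1.51 times in Empty MEF. Each d/d library thus lay below each fl/fl library in this ratio, while the other pairs of groups compared overlapped.

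For each library 3 ratios of strands, which no scaling can change, were tested in the 4 comparisons, 12 tests in all. None passed: a two-sided exact permutation test of 3 libraries against 3 cannot go below p = 0.1, and the lowest Benjamini-Hochberg adjusted p was 0.48. The log2 ratio of the 5p to the 3p arm of miR-145a was −2.54 ± 0.29 in d/d MEF and −3.14 ± 0.22 in fl/fl MEF (SD, n = 3 each), a difference of 0.59 with exact p = 0.1, the smallest p possible. The same log2 ratio was −1.67 ± 0.38 in miR-290~295 and −1.09 ± 0.45 in Empty MEF, a difference of −0.58 with exact p = 0.2. Between the usual guides of the pair, miR-143-3p had 353 to 667 reads per read of miR-145a-5p in OV, 444 to 813 in d/d, 550.5 to 630.1 in fl/fl, 275 to 450 in miR-290~295 and 227 to 335 in Empty MEF. Its exact p was between 0.2 and 0.9 in the 4 comparisons.

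**Figure D2:**
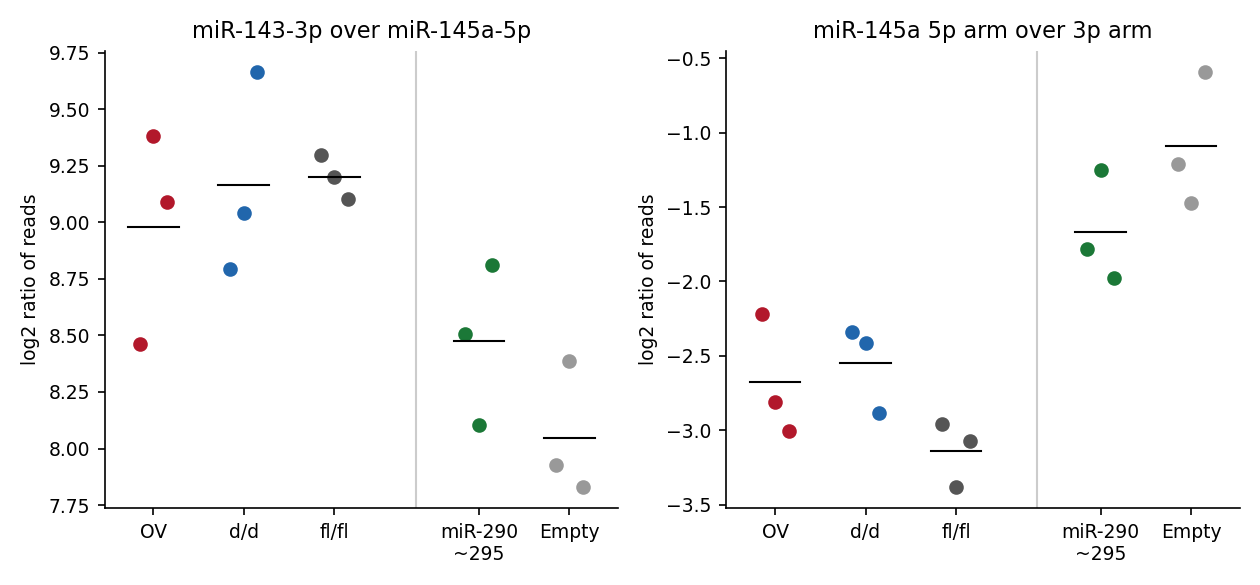
Log2 ratio of reads of miR-143-3p over miR-145a-5p (left) and of the 5p over the 3p arm of miR-145a (right), 1 point per MEF library with the group mean as a bar. The d/d libraries lie above the fl/fl libraries in the right panel (means −2.54 and −3.14), and every library there is below 0.

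All 4 strands fell in miR-290~295 MEF relative to Empty MEF, by 1.70-fold to 2.54-fold, with no overlap between the groups. The share of all miRNAs without overlap is not given here, for this or the other comparisons. Lack of overlap therefore only describes these libraries. MiR-143-3p had 1426173, 1627319 and 1660389 normalized counts in miR-290~295 libraries, against 2459238, 3088323 and 3432907 in Empty libraries. MiR-143-5p had 2289, 3180.0 and 2485 normalized counts in miR-290~295 libraries, against 4185, 5279 and 7393 in Empty libraries. For both strands of miR-143 the highest miR-290~295 library was below the lowest Empty library, and Empty libraries spread more widely.

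MiR-145a-5p had 3920.3, 5916 and 3692 normalized counts in miR-290~295 libraries, against 10107, 9230.1 and 15105 in Empty libraries. MiR-145a-3p had 13486, 14081 and 14548 normalized counts in miR-290~295 libraries, against 23363, 25603 and 22734 in Empty libraries. The usual guide of miR-145a was thus the more variable strand, with 1 high library in each group, and miR-145a-3p the steadiest of the 4, at a coefficient of variation of 3.79% in miR-290~295 and 6.31% in Empty MEF.

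On log2(normalized count + 1), limma called all 4 lower at a Benjamini-Hochberg adjusted p under 0.05 over 840 miRNAs, of which 22.3% were called lower and 38.9% in either direction. MiR-143-3p changed by −0.92 ± 0.15 (SE, adjusted p = 0.00152), 1.89-fold lower, to 52.9% of its Empty level (95% interval 41.9% to 66.7%). MiR-143-5p changed by −1.06 ± 0.22 (adjusted p = 0.00544), 2.08-fold lower. MiR-145a-5p changed by −1.35 ± 0.24 (adjusted p = 0.00230), 2.54-fold lower, to 39.3% of its Empty level (27.2% to 56.9%). MiR-145a-3p changed by −0.77 ± 0.12 (adjusted p = 0.00144), 1.70-fold lower. In bulk samples fewer cells of a type and less RNA per cell cannot be told apart.

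The median change of the 4 strands was −0.99, beside a median of 0.02 over all 840 miRNAs tested. With spike-in scaling the median over all miRNAs was −0.46, and the 4 strands changed by −1.25 to −1.83 (adjusted p of 8.16e-06 to 6.66e-05). Relative to that median the change of miR-143-3p was −0.95, beside −0.94 in the table without spike-ins. Fibroblast markers differed between these libraries too: 5 of 9 fell and 2 rose, beside 22.3% and 16.7% of all miRNAs by limma. With spike-in scaling 7 fell and 2 rose, beside 331 and 56 of all 846 miRNAs. Without spike-ins the median change of these markers was −0.46. Their summed share was 1.58% to 1.91% in miR-290~295 and 1.77% to 2.80% in Empty MEF. Among them miR-199a-3p, a mesenchymal miRNA, changed by −0.61 ± 0.20 (limma, adjusted p = 0.0397), and none of the 9 was at 0. Their part in the fall of miR-143 and miR-145a was not tested.

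**Figure D3:**
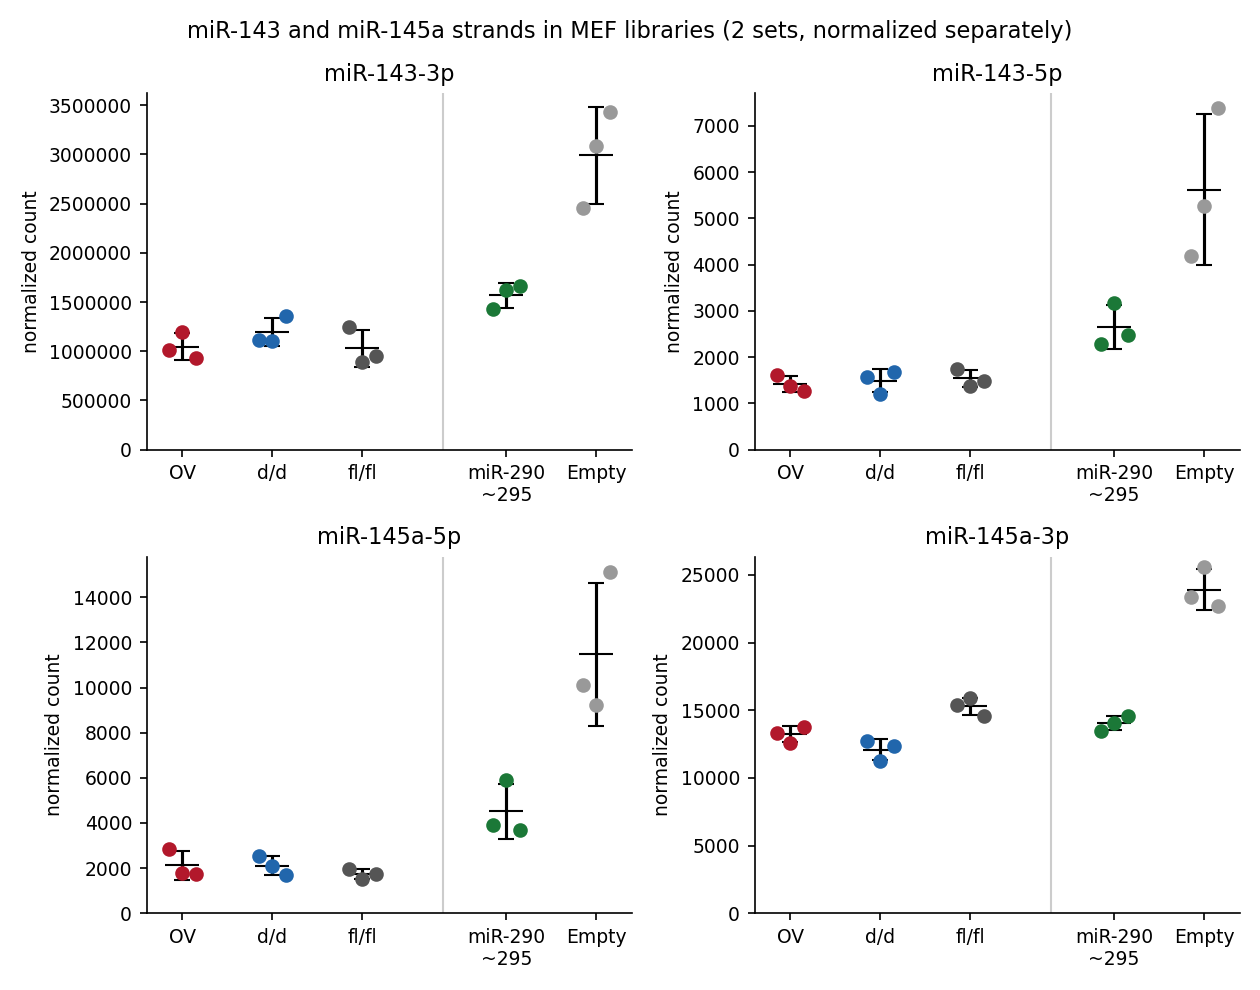
Normalized counts of the 4 strands in the MEF libraries, 1 point per library, with mean and SD as bars (n = 3 each); the vertical line parts the 2 sets, which were normalized separately. In all 4 panels the miR-290~295 libraries lie below the Empty libraries, and for miR-145a-3p the d/d libraries (11213 to 12723) lie below the fl/fl libraries (14588 to 15883).

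In the first MEF set 1 of the 4 strands changed with miR-17~92. MiR-145a-3p had 12723, 11213 and 12350 normalized counts in d/d MEF, against 15361, 15883 and 14588 in fl/fl MEF. All 3 d/d libraries were below all 3 fl/fl libraries. The change was −0.34 ± 0.10 on log2(normalized count + 1) (SE), 1.26-fold lower, with an adjusted p of 0.0147 from limma over 662 miRNAs. In this comparison 27.6% of miRNAs were called lower, 30.7% higher and 58.3% in either direction, so that 1 of 4 strands called is below the background share. The call rested on single libraries: the adjusted p was 0.0614 without FL4 and 0.0725 without DEL2, and it ranged from 0.000353 to 0.0725 over all alternatives, with the change between −0.77 and −0.28. The median change of the 4 strands was 0.08, beside 0.02 over all 662 miRNAs. Of the 9 fibroblast markers 2 rose and 5 fell in d/d MEF, and their summed share was 1.31% to 1.80% in d/d and 2.06% to 2.45% in fl/fl MEF, without overlap. Both endothelial markers fell as well, miR-126a-3p at −1.08 ± 0.11 (limma, adjusted p = 2.50e-05) and miR-126a-5p at −1.56 ± 0.28 (adjusted p = 0.000800), with a summed normalized count of 966 to 1067 in d/d and 2034 to 2230 in fl/fl MEF. Of the striated muscle markers both that could be tested fell, and of 3 epithelial markers tested 1 rose and 2 fell. The part of these markers in the lower miR-145a-3p was not tested.

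The other 3 strands did not pass the test in d/d against fl/fl MEF. MiR-143-3p had 1118207, 1105009 and 1362796 normalized counts in d/d MEF, against 1244826, 894530 and 955011 in fl/fl MEF. The fl/fl library FL3 was within the range of the d/d libraries and the other two were below all of them. The log2 change was 0.22 ± 0.15 (limma, adjusted p = 0.213), which puts d/d MEF at 117% of fl/fl MEF with a 95% interval of 93.2% to 146%. Without FL3 it was 0.36 with an adjusted p of 0.0425, in a range of 0.0425 to 0.765 over all alternatives, and with spike-in scaling, where the median over all miRNAs was −0.39, its sign turned, to −0.21.

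MiR-143-5p had 1578, 1212 and 1682 normalized counts in d/d MEF, against 1754, 1387 and 1491 in fl/fl MEF. MiR-145a-5p had 2519, 2100.0 and 1676 normalized counts in d/d MEF, against 1976, 1522 and 1735 in fl/fl MEF. Both overlapped between the groups. Their log2 changes were −0.06 ± 0.16 (limma, adjusted p = 0.781) for miR-143-5p and 0.25 ± 0.22 (adjusted p = 0.340) for miR-145a-5p, and the 95% intervals reach from 74.5% to 124% and from 85.1% to 167% of the fl/fl level. With spike-in scaling miR-143-5p was called lower, at −0.49 (limma, adjusted p = 0.0360, in a range of 0.0360 to 0.874 over all alternatives), and miR-145a-5p turned to −0.18. The median over all 665 miRNAs was then −0.39, with 283 called lower. Relative to that median miR-143-5p was at −0.10 and miR-145a-5p at 0.22.

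With miR-17~92 overexpressed, none of the 4 strands passed the test. MiR-143-3p had 1008571, 1197435 and 936366 normalized counts in OV MEF, inside the range of the fl/fl libraries given above, and its log2 change was 0.03 ± 0.15 (SE). MiR-143-5p had 1607, 1382 and 1267 normalized counts in OV MEF, and its log2 change was −0.12 ± 0.16. MiR-145a-5p had 2856, 1796 and 1719 normalized counts in OV MEF, with OV1 above every other library of the set, and its log2 change was 0.25 ± 0.22, or 0.019 without OV1. Each of these strands overlapped between OV and fl/fl MEF.

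MiR-145a-3p had 13293, 12584 and 13771 normalized counts in OV MEF, all below the fl/fl libraries. Its log2 change against fl/fl was −0.21 ± 0.10 (SE, limma, adjusted p = 0.132), a level of 86.5% of fl/fl MEF with a 95% interval of 74.0% to 101%. For the 4 strands limma's adjusted p against fl/fl ran from 0.132 to 0.871, with 0 of 4 at an unadjusted p under 0.05. EdgeR's quasi-likelihood test called 0 and DESeq2 called 1 of 4 strands, miR-145a-3p at −0.23 (adjusted p = 0.0419, in a range of 0.0419 to 0.678 over all alternatives). Over all 662 miRNAs 31.3% were called by limma, 15.6% as higher and 15.7% as lower, and their median change was −0.07 beside −0.05 for the 4 strands. Of the 9 fibroblast markers 0 rose and 6 fell in OV against fl/fl MEF by limma. EdgeR called 2 of them lower, beside 75 of all 662 miRNAs. Limma with spike-in scaling called 1 of them lower, beside 44 of 665 miRNAs.

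Between the extremes, OV against d/d MEF, limma called 0 of 4 strands, with 0 at an unadjusted p under 0.05, beside 52.4% of all miRNAs called, 26.7% as higher and 25.7% as lower. EdgeR and DESeq2 called 0 of 4 as well. The log2 changes were −0.19 ± 0.15 for miR-143-3p, −0.06 ± 0.16 for miR-143-5p, −0.00 ± 0.22 for miR-145a-5p and 0.13 ± 0.10 for miR-145a-3p, with adjusted p from 0.302 to 0.993. The interval of miR-143-3p reaches from 70.0% to 109% of its d/d level. With spike-in scaling 3 of the 4 strands were called higher in OV, at 0.50, 0.56 and 0.70 for miR-143-5p, miR-145a-5p and miR-145a-3p, but the median over all miRNAs was then 0.60. Relative to that median the 4 strands lay between −0.22 and 0.10. The 3 comparisons of this set share libraries and are not independent of each other.

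**Figure D4:**
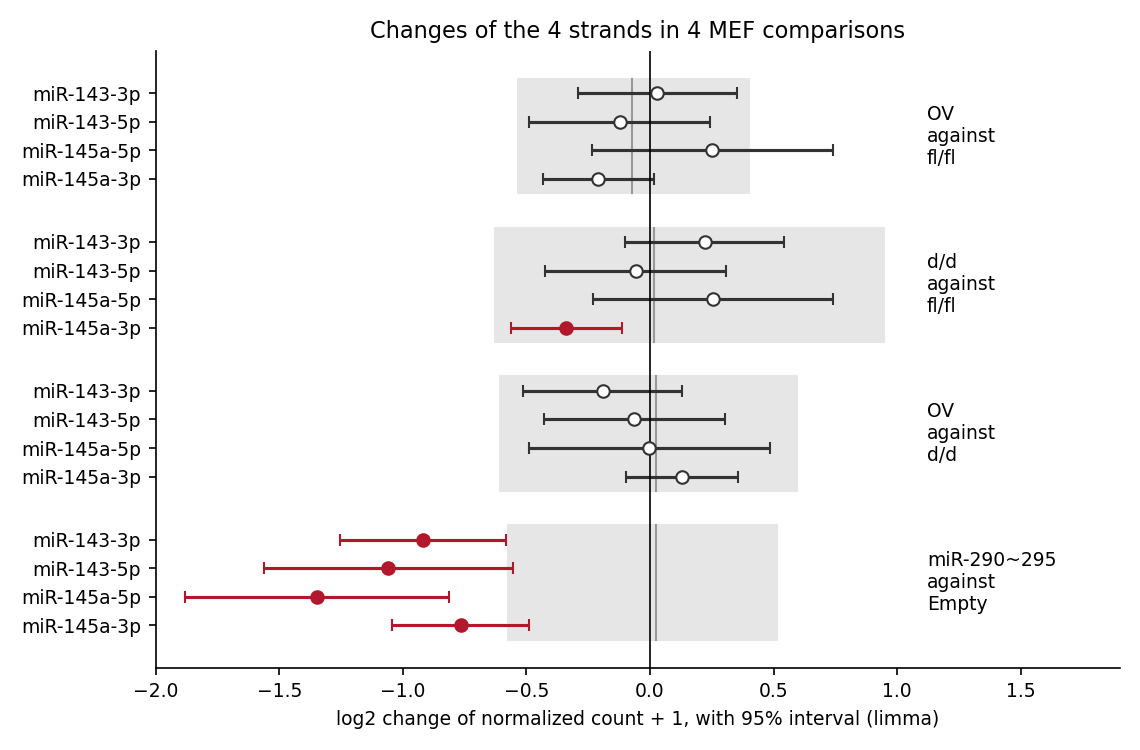
Log2 change of the normalized count + 1 of each strand in the 4 MEF comparisons, as points with 95% intervals from limma; filled red points passed the adjusted p of 0.05, and grey boxes with a line show the quartiles and median over all miRNAs tested. Against Empty all 4 strands lie between −1.35 and −0.77, below the lower quartile of −0.57, and elsewhere miR-145a-3p in d/d against fl/fl, at −0.34, is the filled point.

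In splenic B cells the pair was scarce and differed mostly between d/d and the other two libraries. There is 1 library per group, so no test was made, and intervals cover counting error only. The miR-17~92 cluster itself took 36.3% of reads in OV, 0.378% in d/d and 12.6% in fl/fl B cells. Shares of all other miRNAs depend on this too, which the intervals do not cover. MiR-143-3p had 812 reads in OV, or 0.00796% of reads (Wilson 95% interval 0.00743% to 0.00852%), 6633 in d/d, or 0.0627% (0.0612% to 0.0643%), and 1382 in fl/fl, or 0.0130% (0.0124% to 0.0137%). The lowest share in a MEF library, 3.01%, was far above all of these. MiR-145a-3p had 15 reads in OV, 128 in d/d and 14 in fl/fl B cells. MiR-145a-5p had 4, 23 and 9 reads in OV, d/d and fl/fl B cells, and miR-143-5p had 0, 10 and 3. The 0 of 10203586 reads in OV allow a share of up to 2.94e-05% by a floor of 3 reads, and the upper Wilson limit is 3.76e-05%. For each strand the d/d library held the most reads.

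Normalized counts of miR-143-3p were 5266 in d/d B cells and 1303 in fl/fl B cells, a 4.04-fold difference (counting interval 3.81 to 4.29). MiR-145a-3p had 101.6 normalized counts in d/d and 13.2 in fl/fl, a 7.70-fold difference (4.43 to 14.5). The ratio of miR-145a-5p was 2.15 (0.959 to 5.28) and that of miR-143-5p 2.81 (0.723 to 15.9), and both intervals include 1. MiR-143-3p and miR-145a-3p were at least 2-fold higher in d/d on log2(normalized count + 1), beside 16.2% of the 476 miRNAs kept. MiR-145a-5p passed the minimum mean of 10 only through its d/d value (18.3 normalized counts, against 8.48 in fl/fl and 5.36 in OV). It is therefore left out of this comparison. In OV B cells miR-143-3p had 1088 normalized counts, 0.835 times the fl/fl value (0.765 to 0.911). Neither miR-143-3p nor miR-145a-3p was at least 2-fold lower in OV on that log2 scale, beside 6.30% of the 476 miRNAs kept. MiR-145a-3p was at 1.52 (0.685 to 3.40) and miR-145a-5p at 0.632 (0.142 to 2.26) times fl/fl.

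Fibroblast marker miRNAs moved the same way in these libraries. Of the 8 of 9 with reads in fl/fl B cells, 7 were higher in d/d, by 2.69-fold to 6.53-fold, with miR-199a-3p at 4.38, miR-214-3p at 4.49 and miR-31-5p at 6.53 times fl/fl. MiR-199a-3p and miR-199b-3p had nearly equal counts in every library and are uncertain as separate miRNAs. They may be 1 measurement counted as 2 markers in all counts and sums of this list, in MEF as well. MiR-196a-5p was at 0.643 times fl/fl, and miR-214-5p was the marker at 0 in fl/fl. The summed normalized count of the list was 1979.9 in OV, 5905 in d/d and 1779 in fl/fl B cells. Blood cell markers moved in both directions in d/d: miR-142a-3p was at 0.991, miR-142a-5p at 1.06, miR-451a at 1.88, miR-486a-5p at 1.81 and miR-150-5p at 0.140 times fl/fl, and miR-223-3p had 15.9 normalized counts in d/d and 0 in fl/fl. MiR-206-3p, a striated muscle miRNA, was at 4.53 times fl/fl. The part of the fibroblast markers in the higher miR-143 and miR-145a of d/d B cells was not tested. MiR-143-3p was 0.549, 0.892 and 0.732 times the summed fibroblast markers in OV, d/d and fl/fl B cells, against 1.81 to 5.47 times in MEF.

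**Figure D5:**
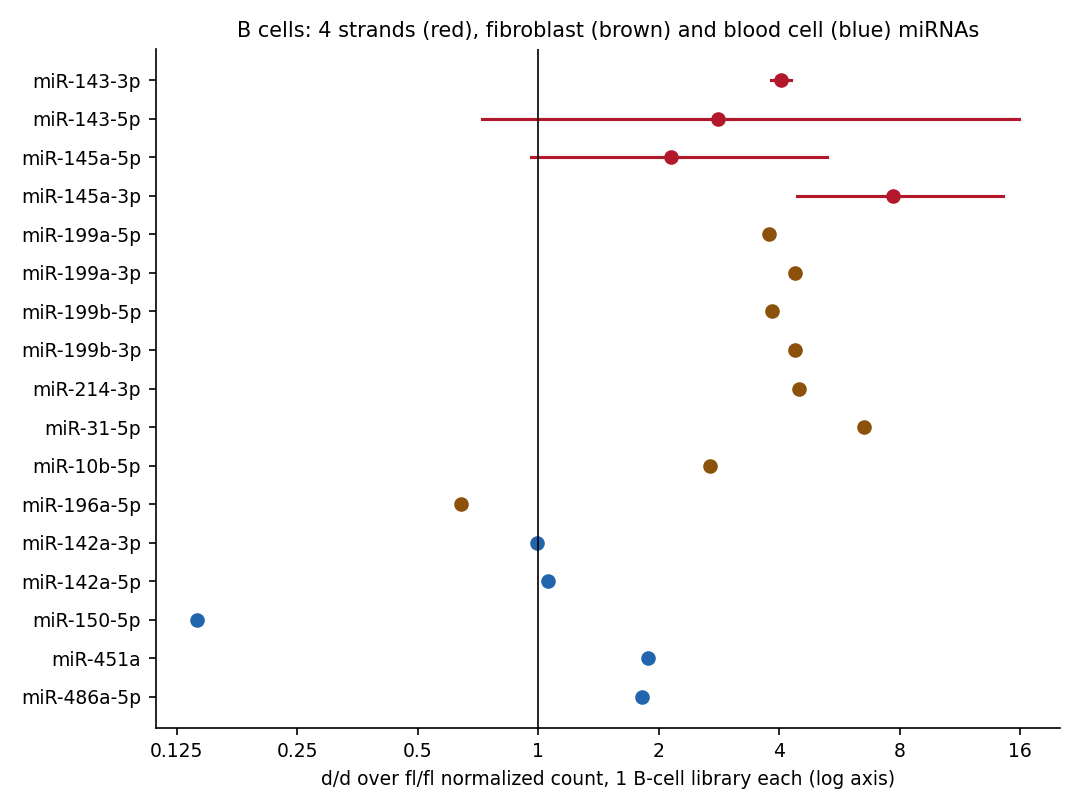
Ratio of normalized counts, d/d over fl/fl B cells, 1 library each, on a log axis, for the 4 strands with counting intervals (red), fibroblast markers (brown) and blood cell markers (blue). The 4 strands lie at 2.15 to 7.70, 7 fibroblast markers at 2.69 to 6.53 and miR-196a-5p at 0.643, and blood cell markers spread over 0.140 (miR-150-5p) to 1.88 (miR-451a).

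The 4 strands moved together over the 15 MEF libraries and not within the first set. Over its 9 libraries the log2 levels of miR-143-3p had a Pearson r of 0.50 with miR-143-5p, 0.09 with miR-145a-5p and −0.45 with miR-145a-3p. Over all 15 MEF libraries, each set centred on its mean, these were 0.89, 0.77 and 0.68, values that hold the difference between miR-290~295 and Empty. The 3 other miRNAs most like miR-143-3p over the 9 libraries were miR-3076-3p (r = 0.81), miR-7648-3p (0.79) and miR-125b-1-3p (0.78). Those most like miR-145a-5p were miR-31-3p (0.86), miR-7a-1-3p (0.81) and miR-345-5p (0.79). Over 15 libraries miR-31-3p, miR-7a-1-3p and miR-345-5p had an r of 0.30, 0.71 and 0.81 with miR-145a-5p. For miR-3076-3p, miR-7648-3p and miR-125b-1-3p the likeness to miR-143-3p was then 0.18, −0.26 and −0.09. These are descriptions over libraries that share groups and depth, chosen from 658 candidates.

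Of 10 miRNAs listed for a link to muscle or to serum response factor, 2 could be tested in MEF. In miR-290~295 against Empty MEF 1 of them fell by limma, beside 22.3% of all miRNAs called lower. It was miR-206-3p, a miRNA of skeletal muscle, at −0.51 ± 0.15 (SE, limma, adjusted p = 0.0238). MiR-1a-3p, the main miRNA of heart and skeletal muscle, was at −1.44 ± 0.72 (adjusted p = 0.143) by limma, while edgeR (−2.14, adjusted p = 0.0468) and limma with spike-in scaling (−1.92, adjusted p = 0.0216) called it lower too, in a range of 0.0216 to 0.143 over these tools and scalings. The median of both was −0.98. In d/d against fl/fl MEF both fell by limma, miR-1a-3p at −1.01 ± 0.33 (adjusted p = 0.0219) and miR-206-3p at −0.81 ± 0.12 (adjusted p = 0.000243). There 27.6% of all miRNAs were called lower. In OV against d/d MEF miR-206-3p rose by 0.47 ± 0.12 (limma, adjusted p = 0.00790), beside 26.7% of all miRNAs called higher. Against fl/fl, OV had 0 of 2 called by limma and edgeR and 1 by DESeq2, with 1 at an unadjusted p under 0.05. Over all miRNAs limma called 31.3% in that comparison.

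Of 18 miRNAs linked to smooth muscle phenotype, 17 were tested, and 7 rose and 3 fell in miR-290~295 against Empty MEF, with a median change of 0.08, beside 16.7% of all miRNAs called higher and 22.3% lower. MiR-222-3p, which with miR-221 favours growth of vascular smooth muscle, rose by 1.91 ± 0.31 (limma, adjusted p = 0.00144) and miR-222-5p by 1.47 ± 0.14 (adjusted p = 7.68e-05). MiR-146a-5p fell by 2.19 on the log2 scale (SE 0.20, adjusted p = 6.27e-05). In d/d against fl/fl MEF 2 rose and 9 fell, beside 30.7% and 27.6% of all miRNAs, led by miR-31-3p at 1.18 ± 0.45 (adjusted p = 0.0448) and miR-221-3p at −1.17 ± 0.19 (adjusted p = 0.000388). In OV against fl/fl MEF 2 rose and 5 fell, beside 15.6% and 15.7% of all miRNAs, with miR-146a-5p at 1.51 ± 0.15 (adjusted p = 9.72e-05), and in OV against d/d MEF 7 rose and 1 fell, beside 26.7% and 25.7%, with miR-29b-3p at 1.67 ± 0.51 (adjusted p = 0.0180). With spike-in scaling 5 were higher and 7 lower in miR-290~295 against Empty MEF, beside 56 and 331 of all 846 miRNAs tested. In d/d against fl/fl the counts were 0 and 12, beside 147 and 283 of 665 miRNAs. They were 2 and 1 in OV against fl/fl, beside 112 and 44 of 665. In OV against d/d they were 13 and 0, beside 333 and 120 of 665. EdgeR called 2 higher and 2 lower in OV against fl/fl MEF, beside 107 and 75 of all 662 miRNAs.

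Of 12 miRNAs linked to p53, a factor known in human cells to promote the processing of miR-143 and miR-145, 2 fell and 0 rose in miR-290~295 against Empty MEF, beside 22.3% of all miRNAs called lower. They were miR-34a-5p at −0.90 ± 0.24 (limma, adjusted p = 0.0156) and miR-34c-3p at −0.60 ± 0.21 (adjusted p = 0.0486). In d/d against fl/fl MEF 8 of 12 fell, beside 27.6% of all miRNAs, with miR-34c-3p at −1.77 ± 0.38 (adjusted p = 0.00226), and in OV against d/d MEF 6 rose, beside 26.7%, with miR-34c-3p at 2.07 ± 0.38 (adjusted p = 0.000832). In OV against fl/fl MEF limma, edgeR and DESeq2 each called 0 of 12, with 2, 1 and 2 at an unadjusted p under 0.05. Over all 662 miRNAs they called 207, 182 and 236. With medians re-centred limma called 2 of 12 lower, beside 153 of 662 miRNAs. With spike-in scaling 6 fell in miR-290~295 against Empty MEF, beside 331 of all 846 miRNAs called lower. In OV against d/d MEF 9 then rose, beside 333 of 665 called higher.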

How the data were processed

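Small RNA libraries of B cells and MEF were made from gel-purified total RNA with a NEBNext kit, per the labels' protocols. The submitters' processing notes name DESeq2 without a version, and the names of the deposited tables call the signal values normalized counts, with 1 row per mature miRNA; the aligner and annotation, like the build, were not given in the sources used here. Values of each MEF set came as 1 table scaled without and 1 scaled with spike-ins, per their names. A further 33 columns of regularized log values were not used. Dividing each library by its smallest step gave whole reads for 100% of values (tolerance 0.0001), as counts scaled by 1 factor per library would, and depth here is the sum of these reads over listed miRNAs. OV and fl/fl MEF columns carry numbers that differ from the labels' replicates and were used by group.

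MiRNAs averaging 10 or more normalized counts were tested with limma 3.58.1 (R 4.3.3) on log2(normalized count + 1) with a mean-variance trend, all groups of a set in 1 fit, and Benjamini-Hochberg adjustment over all miRNAs tested (threshold 0.05), after the procedure had been tested on simulated data. EdgeR 4.0.16 (quasi-likelihood, TMM) and DESeq2 1.42.0 on the whole reads, spike-in scaling, median centring, other pseudocounts and minimum means and leaving out each library were alternatives. Strand ratios were tested by exact permutation. Named miRNAs are the 4 strands, miR-145b, the 3 miRNAs with the highest r to each guide, and the largest changes of each list, at most 2 per direction. The members and lists were chosen with earlier results of these data known.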

Additional observations from a re-analysis of the deposited data

Results flagged for a closer look

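By normalized count miR-145a-3p was higher in d/d B cells and lower in d/d MEF than in fl/fl. For OV no opposite direction was shown. In d/d against fl/fl B cells miR-145a-3p was 7.70-fold higher (101.6 and 13.2 normalized counts, 1 library each). All 3 d/d MEF libraries were below all 3 fl/fl MEF libraries, with a log2 change of −0.34. That MEF call rested on single libraries (limma, adjusted p up to 0.0725 with 1 left out), and by share of reads the groups overlapped. Most fibroblast markers were higher too in the d/d B-cell library, with miR-196a-5p lower, and their part was not tested. In OV against fl/fl B cells miR-145a-3p was 1.52 times as high (20.1 and 13.2 normalized counts), with a counting interval of 0.685 to 3.40 that includes 1. All 3 OV MEF libraries were below all 3 fl/fl MEF libraries, with a log2 change of −0.21 that did not pass (limma, adjusted p = 0.132). Neither difference between the cell types was tested, since B cells have 1 library per group.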

How the results depend on the processing

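In miR-290~295 against Empty MEF all 4 strands kept their direction and passed the threshold in each of the 16 alternatives, with log2 changes of −1.40 to −0.81 for miR-143-3p, −1.54 to −0.84 for miR-143-5p, −1.83 to −1.13 for miR-145a-5p and −1.25 to −0.72 for miR-145a-3p. With a replicate block they were −0.92, −1.06, −1.35 and −0.77 and 298 miRNAs were called, against 327 without it. Deviations of same-numbered libraries from their group means had an r of 0.28, 0.01 and −0.26. No pairing by number was thus seen, but groups of 3 libraries are too small to exclude it. No paired analysis was possible because the column numbers of OV and fl/fl MEF do not match the labels' replicates in the miR-17~92 set.

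In OV against fl/fl MEF, miR-143-3p was −0.10 with medians re-centred and −0.0020 by DESeq2, miR-143-5p 0.014 with spike-ins, and miR-145a-3p −0.23 by DESeq2. In d/d against fl/fl MEF, spike-in scaling gave −0.21, −0.49 (adjusted p = 0.0360) and −0.18 for miR-143-3p, miR-143-5p and miR-145a-5p, and re-centring −0.063 for miR-143-3p and −0.029 for miR-145a-5p. In OV against d/d MEF spike-in scaling gave 0.38, 0.50, 0.56 and 0.70 for miR-143-3p, miR-143-5p, miR-145a-5p and miR-145a-3p, re-centring 0.090 for miR-143-5p and 0.15 for miR-145a-5p, and edgeR 0.062 and DESeq2 0.0083 for miR-145a-5p. Spike-in and re-centred values move with the median of all miRNAs. The cause of the other shifts was not tested.

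Leaving out 1 library at a time gave −0.071 to 0.17 for miR-143-3p and 0.019 to 0.38 for miR-145a-5p in OV against fl/fl; 0.12 to 0.36, −0.15 to 0.085, 0.11 to 0.41 and −0.38 to −0.28 for miR-143-3p, miR-143-5p, miR-145a-5p and miR-145a-3p in d/d against fl/fl; and −0.21 to 0.030 for miR-143-5p and −0.24 to 0.14 for miR-145a-5p in OV against d/d MEF. It gave 124 to 236 called miRNAs in OV against fl/fl (207 with all libraries, 124 without FL5). The log2 ratio of miR-143-3p to miR-145a-5p moved over −0.42 to 0.034 in OV against fl/fl MEF, −0.28 to 0.15 in d/d against fl/fl MEF and −0.39 to 0.068 in OV against d/d MEF, and the miR-145a arm ratio over −0.36 to 0.031 in the last.

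By share of reads miR-143-3p in B cells was 4.82 (d/d over fl/fl), 0.611 (OV over fl/fl) and 0.127 (OV over d/d). Over 15 libraries the r of miR-143-3p was −0.26 with miR-7648-3p and −0.085 with miR-125b-1-3p. Spike-in scaling turned the calls in miR-290~295 against Empty to 56 higher and 331 lower (140 and 187 without), in d/d against fl/fl to 147 and 283 (203 and 183), in OV against d/d to 333 and 120 (177 and 170) and in OV against fl/fl to 112 and 44 (103 and 104). Re-centring gave 107 and 211, 162 and 245, 208 and 142, and 83 and 153 in the same order. On whole reads edgeR called 327 miRNAs in miR-290~295 against Empty, 391 in d/d against fl/fl, 350 in OV against d/d and 182 in OV against fl/fl, and DESeq2 348, 402, 350 and 236 in that order. Depth limits the B-cell values of miR-143-5p and miR-145a-5p, at 0 to 23 reads.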
